A study of Homo sapiens with 9 samples.

Results

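The genes described here are NLGN2, CLSTN1, CLSTN3 and C1QL1, 4 of the 15570 genes in the deposited expression table, which encode adhesion or adhesion-linked proteins best known from synapses. They were picked by name with their values in these samples already known, so their levels and fold changes are given as a description and without a test. All 4 were among the 10818 genes that passed the expression filter of at least 1 FPKM (fragments per kilobase of transcript, scaled to the mapped fragments of the library) in at least 3 libraries.

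The 9 RNA libraries are from hCMEC/D3, a human line of immortalised endothelial cells from brain microvessels that serves as a blood-brain barrier model. Control cells (3 libraries) were not deprived. The oxygen and glucose deprivation group (OGD, 3 libraries) was grown in normal DMEM and then held for 4 h in glucose-free medium under nitrogen with carbon dioxide. The OGD/R group (3 libraries) underwent the same deprivation and then 16 h of reoxygenation in normal medium in air with carbon dioxide. The line is a single clone, and no other cell type is named in the labels. Most endothelial markers looked for were low in these data. Of 13, 12 were in the table, 4 passed the filter and 7 stayed under 1 FPKM in every library. VWF and CLDN5, which are among those under 1 FPKM, reached at most 0.0881 and 0.101 FPKM. The whole list summed to 14.2 to 19.3 FPKM in control, most of it from the markers that reached 1 FPKM. Nothing in the labels says that the replicates were separate cultures, so errors and p-values reflect only how these libraries vary, which may be technical.

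Neuroligins are transmembrane proteins that sit on the receiving side of a synapse and bind neurexins and other receptors on the opposite membrane. NLGN2 is the family member of inhibitory synapses, and neurexins and neuroligins are also known from vessel walls. Calsyntenins are transmembrane proteins with cadherin repeats in the ectodomain and a cytoplasmic tail that binds kinesin light chains, through which CLSTN1 carries vesicles and the amyloid precursor protein APP along microtubules. C1QL1 is a secreted protein with a collagen-like stretch and a globular C1q domain, and is a ligand of the adhesion receptor ADGRB3.

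NLGN2 (NCBI Gene 57555) lies on chromosome 17 from 7404653 to 7419860 on the plus strand of GRCh38.p14, and C1QL1 (NCBI Gene 10882) on the same chromosome from 44959693 to 44968303 on the minus strand. CLSTN1 (NCBI Gene 22883) lies on chromosome 1 from 9728926 to 9824526 on the minus strand. CLSTN3 (NCBI Gene 9746) lies on chromosome 12 from 7129093 to 7158945 on the plus strand. The longest coding transcripts in GENCODE 29 were of 4642 bases in 7 exons for NLGN2, 5221 bases in 19 exons for CLSTN1, 4185 bases in 18 exons for CLSTN3 and 1295 bases in 2 exons for C1QL1. C1QL1 is thus the short gene of the set, at percentile 8.31 of length among tested genes, against 63.8 for CLSTN3, 70.3 for NLGN2 and 76.5 for CLSTN1. Transcripts were compared in stretches of 50 bases, each read in its own direction. No stretch from the coding transcripts of the 4 genes occurred in a GENCODE transcript of another gene or of another of the 4. The paralogs CLSTN1 and CLSTN3 thus have no such stretch in common. Reverse complements were not searched, so sequence shared with genes on the opposite strand was not covered.

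The sequences before the starts of 3 of these genes are shown, because the RefSeq promoter table used here held no entry for C1QL1. The bases are from RefSeq (GRCh38.p14), printed 5′ to 3′ on the strand of the gene, and capitals mark a motif that was searched. The NLGN2 window is chr17:7407595-7407844 (plus strand), the CLSTN1 window, the farther upstream of 2, chr1:9824527-9824776 (minus strand), and the CLSTN3 window, cut where an annotated exon of the gene begins, chr12:7130121-7130198 (plus strand).
NLGN2: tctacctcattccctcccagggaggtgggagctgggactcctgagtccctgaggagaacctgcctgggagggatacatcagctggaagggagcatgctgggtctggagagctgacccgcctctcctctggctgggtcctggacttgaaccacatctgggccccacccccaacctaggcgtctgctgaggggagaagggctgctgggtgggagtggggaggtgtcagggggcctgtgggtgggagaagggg
CLSTN1: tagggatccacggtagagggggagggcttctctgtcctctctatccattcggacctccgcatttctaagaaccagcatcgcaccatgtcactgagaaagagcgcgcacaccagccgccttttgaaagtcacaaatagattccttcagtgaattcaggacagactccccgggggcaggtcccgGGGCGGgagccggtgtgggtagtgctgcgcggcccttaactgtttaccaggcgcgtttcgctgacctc
CLSTN3: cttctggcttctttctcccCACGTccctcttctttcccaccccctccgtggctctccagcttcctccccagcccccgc

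6 motifs were searched on both strands in the 250 bases before each start, namely ACGTG (the core of a hypoxia response element), CACGTG (an E-box, which contains ACGTG), TGATGNAA (an ATF4-type element), TGACGTCA (a cAMP response element), GGGCGG (a GC box) and the ER stress response element. The 3 windows had no motif in common. CLSTN1 held 1 GC box from 68 to 63 bases before the start, a motif present in 42.6% of 35116 windows of the same length and in 64.8% of those of tested genes. CLSTN3 held ACGTG, read on the opposite strand, from 231 to 227 bases before the start, as did 18.5% of all windows and 22.8% of those of tested genes. The NLGN2 window held none of these motifs. It begins 2942 bases inside the gene, and that of CLSTN3 begins 1028 bases inside its gene. Starts of annotated coding transcripts were counted over every window of a gene, with the 50 bases after each start included. For NLGN2 0 of 3 transcripts had such a start, and for CLSTN3 1 of 8. For CLSTN1 the count was 2 of 3 over its 2 windows together, so the count for the window shown is not known. The motif search and composition given for NLGN2 thus describe that window only, and its use as a promoter was not tested. When the 50 bases after the start were added, a step chosen after seeing the sequence, CLSTN3 also held TGACGTCA across its start, as did 1.85% of windows of that length. The windows also differed in composition, with 2 CpG dinucleotides in that of NLGN2, 12 in that of CLSTN3 and 16 in that of CLSTN1, against a median of 21 over the windows of tested genes.

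After 4 h of deprivation the FPKM of all 4 genes was below that of control, and in no gene did an OGD library overlap a control library. Mean OGD levels were 11.2% of control for NLGN2, 12.7% for C1QL1, 37.6% for CLSTN3 and 38.7% for CLSTN1. After 16 h of reoxygenation NLGN2, CLSTN1 and CLSTN3 stood above control, at 191%, 373% and 179% of the control mean, whereas C1QL1 stood at 44.7%. The order OGD, control, OGD/R without overlap held for these 3 genes and for 17.2% of tested genes, and the order OGD, OGD/R, control held for C1QL1 and for 2.83% of tested genes. Fewer cells that express a gene and less RNA per cell cannot be told apart in these bulk samples.

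**Figure D1:**
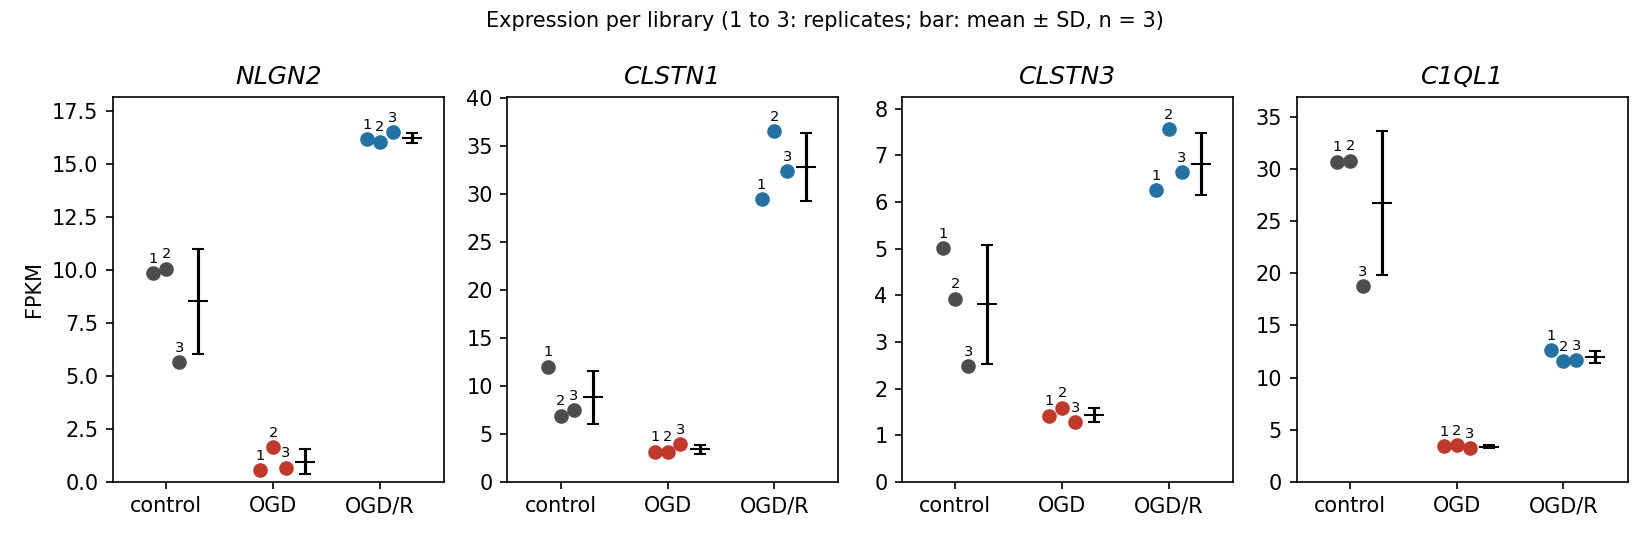
FPKM (y axis, starting at 0, separate scale per gene) of NLGN2, CLSTN1, CLSTN3 and C1QL1 in the 9 libraries, with numbered points for replicates and a black bar for the mean ± SD (n = 3). The OGD points are lowest in each panel, and OGD/R points lie above control in the first 3 panels and below control for C1QL1.

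NLGN2, the neuroligin, read 9.85, 10.05 and 5.65 FPKM in control replicates 1 to 3. In OGD it read 0.538, 1.64 and 0.675 FPKM. In OGD/R it read 16.2, 16.0 and 16.5 FPKM. Control replicate 3 was the low control library, at 56.8% of the mean of the other two, and OGD replicate 2 was the high one of its group, while the OGD/R libraries lay close together. Group means were 8.52 ± 2.48 in control, 0.952 ± 0.602 in OGD and 16.2 ± 0.236 FPKM after reoxygenation (SD, n = 3). On the log2(FPKM + 1) scale, which understates changes of low values, NLGN2 differed from control by -2.29 (SE 0.22) in OGD and by 0.89 (SE 0.22) in OGD/R, and from OGD by 3.18 (SE 0.22) in OGD/R. With a pseudocount of 0.1 the OGD difference was -3.13, and the OGD/R difference from OGD was 4.10. NLGN2 had the fourth lowest fold change of all tested genes in OGD against control and the third highest in OGD/R against OGD, or the 5th lowest and the highest with a pseudocount of 0.1, where it stood below C1QL1 (-2.91) in OGD against control.

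CLSTN1, the kinesin-linked calsyntenin, read 12.01, 6.89 and 7.47 FPKM in control, with replicate 1 the high library. In OGD it read 3.16, 3.14 and 3.92 FPKM. In OGD/R it read 29.4, 36.5 and 32.3 FPKM. The lowest OGD/R library was thus above the highest control library. Group means were 8.79 ± 2.81, 3.41 ± 0.448 and 32.8 ± 3.57 FPKM in control, OGD and OGD/R (SD, n = 3). The log2 fold change was -1.12 (SE 0.17) in OGD against control, 2.94 (SE 0.17) in OGD/R against OGD and 1.82 (SE 0.17) in OGD/R against control. CLSTN1 ranked 16 from the highest of 10818 genes in OGD/R against control and 6 from the highest in OGD/R against OGD, but 289 from the lowest in OGD against control. With a pseudocount of 0.1 these ranks were 54, 14 and 437. The 3′ end of CLSTN1 overlaps PIK3CD on the opposite strand over 189 bases, and whether the counting used strand is not given in the sources used here. PIK3CD, a phosphoinositide kinase gene, had means of 1.42 ± 0.676, 1.15 ± 0.135 and 3.41 ± 0.194 FPKM in the 3 groups, and the part of shared reads in either gene was not tested.

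CLSTN3, a calsyntenin reported to bind neurexins, was the lowest of the 4 genes in all control and OGD/R libraries. It read 5.01, 3.93 and 2.48 FPKM in control. In OGD it read 1.42, 1.59 and 1.28 FPKM. In OGD/R it read 6.25, 7.56 and 6.64 FPKM. Control replicate 3 was again low, at 55.4% of the mean of the other controls, and still above every OGD library. Group means were 3.81 ± 1.27, 1.43 ± 0.152 and 6.82 ± 0.668 FPKM (SD, n = 3). The log2 fold change was -0.95 (SE 0.18) in OGD against control, 1.68 (SE 0.18) in OGD/R against OGD and 0.73 (SE 0.18) in OGD/R against control. In RefSeq CLSTN3 overlaps RBP5, a retinol-binding protein gene whose means were from 0.0895 to 0.143 FPKM, and in GENCODE 29 it overlaps 2 antisense RNAs not used here.

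C1QL1, the secreted ligand, was the most abundant of the 4 genes in control, at 30.7, 30.8 and 18.7 FPKM. In OGD it read 3.41, 3.53 and 3.22 FPKM, the tightest group of any of the 4 genes at that time, with an SD of 4.59% of the mean. In OGD/R it read 12.6, 11.6 and 11.7 FPKM. Every OGD/R library lay between the highest OGD and the lowest control library. Group means were 26.7 ± 6.92, 3.39 ± 0.155 and 11.96 ± 0.595 FPKM (SD, n = 3). The log2 fold change was -2.63 (SE 0.16) in OGD against control, the 2nd lowest of all tested genes (the 7th with a pseudocount of 0.1). It was 1.56 (SE 0.16) in OGD/R against OGD and -1.06 (SE 0.16) in OGD/R against control, where it ranked 33 from the lowest. That last rank was 63 with a pseudocount of 0.1 and 95 with the length trend removed. With 1 library left out it ran from 17 to 85. Since the median of all tested genes was -0.31 in OGD against control, 0.39 in OGD/R against OGD and 0.07 in OGD/R against control, the C1QL1 values relative to that median were -2.32, 1.17 and -1.13.

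**Figure D2:**
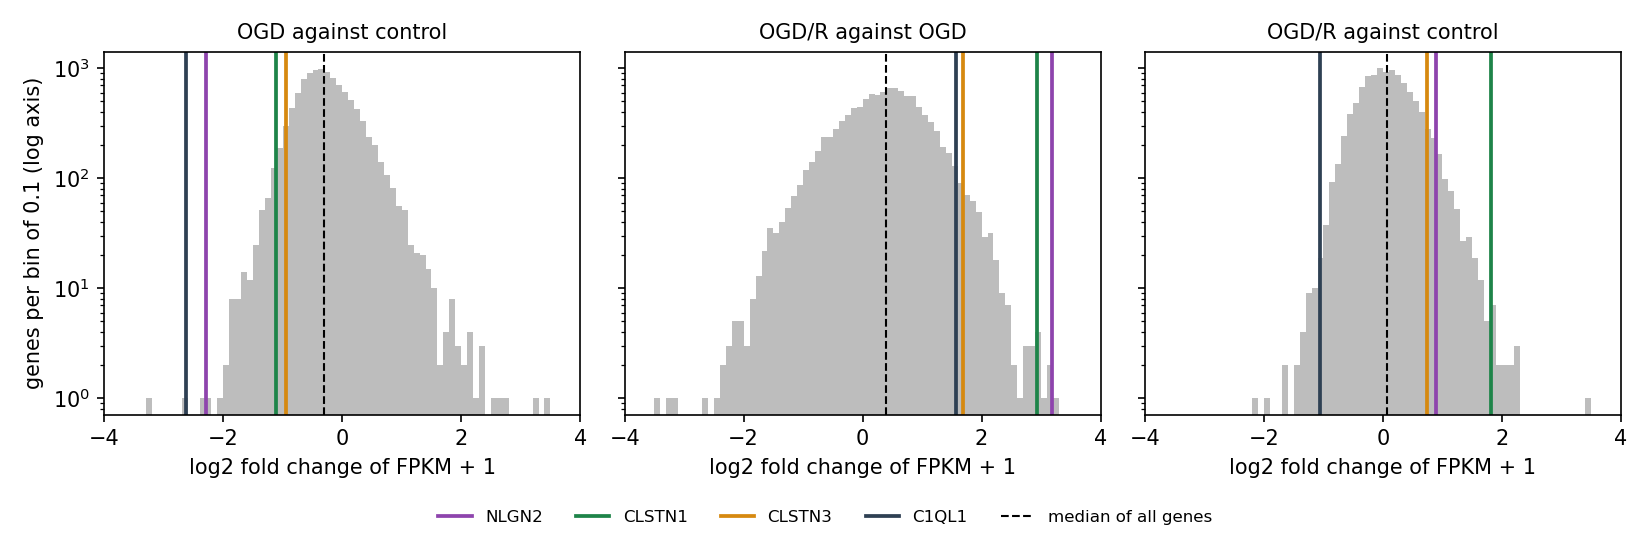
Number of tested genes (y axis, log scale) per bin of log2 fold change of FPKM + 1 (x axis) in the 3 comparisons, with a vertical line for each of the 4 genes and a dashed line for the median of all genes. C1QL1 and NLGN2 stand at -2.63 and -2.29 in OGD against control, and C1QL1 is on the other side of 0 from NLGN2, CLSTN1 and CLSTN3 in OGD/R against control.

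Groups without overlap are common in these libraries and the counts of the 4 genes are to be read beside that. Of all tested genes, 51.8% were lower in OGD than in control without overlap (4 of 4 here, with 13.2% higher) and 57.8% were higher in OGD/R than in OGD (4 of 4, with 20.4% lower). In OGD/R against control 28.5% were higher without overlap (3 of the 4) and 19.3% lower (C1QL1). These counts come from the contrasts with which the genes were chosen. The comparisons share libraries, so a high or low control library enters the first and the last of them alike. Control replicate 3 was below the mean of the other controls in each of the 4 genes, from 55.4% in CLSTN3 to 79.0% in CLSTN1. Without it the log2 fold change of C1QL1 in OGD against control was -2.86 and that of CLSTN3 was -1.17. In OGD/R against control the rises were smaller without it, at 0.65 for NLGN2, 1.73 for CLSTN1 and 0.52 for CLSTN3, in place of 0.89, 1.82 and 0.73. That of C1QL1 was -1.29 in place of -1.06. Leaving out control replicate 1 instead made the falls in OGD against control smaller. They were then -2.18 for NLGN2, -0.90 for CLSTN1, -0.77 for CLSTN3 and -2.51 for C1QL1, in place of -2.29, -1.12, -0.95 and -2.63.

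The proportions of the 4 genes to each other changed with the group. C1QL1 held 55.8% ± 3.32 of their summed FPKM in control, 37.0% ± 2.61 in OGD and 17.7% ± 1.76 after reoxygenation, with no overlap between groups. CLSTN1 held 18.7% ± 4.63, 37.3% ± 5.70 and 48.3% ± 2.66 (SD, n = 3). In control, CLSTN1 and NLGN2 did not differ beyond their spread, and the ratio of NLGN2 to CLSTN1 was 1.01 ± 0.388. That ratio was 0.289 ± 0.203 in OGD and 0.499 ± 0.0559 in OGD/R. The ratio of CLSTN1 to its paralog CLSTN3 was 2.39 ± 0.633 in control and 2.42 ± 0.566 in OGD, and 4.80 ± 0.0859 after reoxygenation, where its lowest value of 4.71 was above the highest of 3.06 in the other groups. These ratios within a library, chosen after the values were seen, do not change when a whole library is multiplied by 1 factor, but a correction that acts gene by gene does move them. With the length trend removed, the OGD fold changes of C1QL1 and CLSTN1 were -2.61 and -0.73 in place of -2.63 and -1.12, and those in OGD/R against control -0.91 and 1.60 in place of -1.06 and 1.82.

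**Figure D3:**
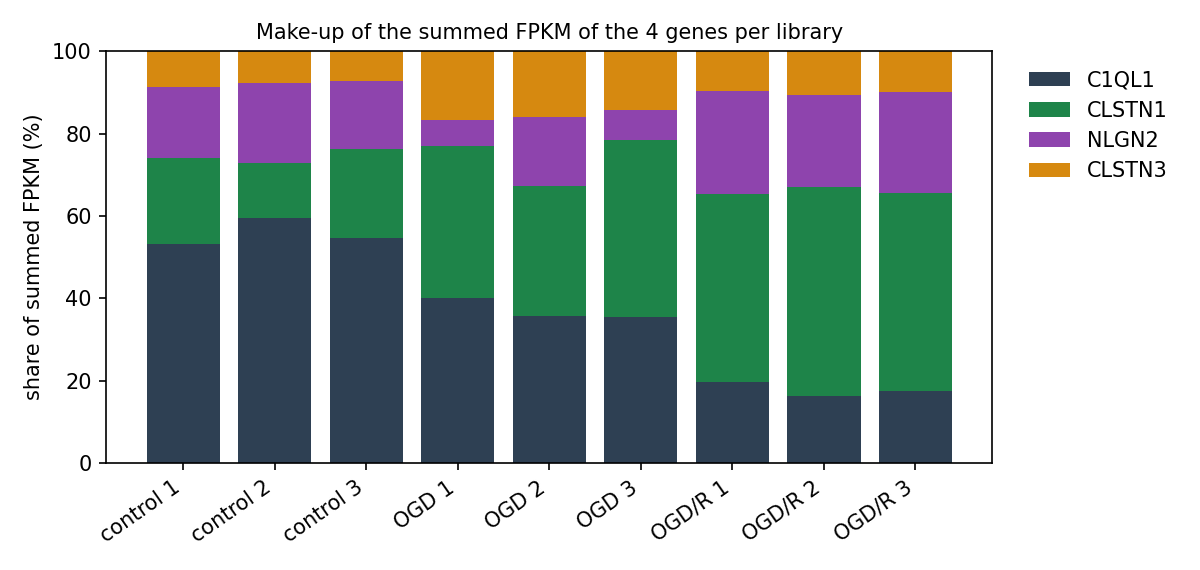
Share of the summed FPKM of the 4 genes (y axis, percent) taken by each gene in each of the 9 libraries (x axis). The C1QL1 segment takes 53.3% to 59.6% in control, 35.4% to 40.0% under deprivation and 16.1% to 19.6% after reoxygenation.

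Across the 9 libraries the log2 values of NLGN2, CLSTN1 and CLSTN3 were alike, with Pearson r of 0.90 between NLGN2 and CLSTN1, 0.97 between NLGN2 and CLSTN3 and 0.95 between CLSTN1 and CLSTN3. C1QL1 was less like them, with r of 0.77 to NLGN2, 0.65 to CLSTN3 and 0.47 to CLSTN1. The libraries form 3 groups, so these values describe the group pattern. Among other tested genes the most like NLGN2 were EHBP1L1 (r = 0.998), TRIM14 (0.991) and WFS1 (0.989). The most like CLSTN1 were ANGPTL4 (r = 0.999), COL1A1 (0.999) and LGALS3BP (0.998), and among the most like CLSTN3 were MAP7D1 (0.998) and DGCR2 (0.997). The most like C1QL1 were PDE7B (r = 0.992), TK1 (0.987) and HDAC8 (0.985). PDE7B, a cyclic AMP phosphodiesterase gene, had means of 3.54 in control, 0.770 in OGD and 2.20 FPKM after reoxygenation. COL1A1, a collagen chain gene, had means of 6.29, 2.24 and 29.3 FPKM. An r of at least 0.95 was reached by 1345 genes with CLSTN3, 1132 with CLSTN1, 686 with NLGN2 and 159 with C1QL1.

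Many relatives and binding partners known from synapses were below the expression filter. The other neuroligins in the table, NLGN1 and NLGN3, the third calsyntenin CLSTN2, the neurexins NRXN2 and NRXN3, the relatives C1QL2 and C1QL3 and the C1QL1 receptor ADGRB3 stayed under 1 FPKM in every library. ADGRB2 (at most 1.18), MDGA1 (1.30) and the kinesin gene KIF5A (1.40 FPKM) passed 1 FPKM in fewer than 3 libraries. Of 104 genes in 8 lists of synaptic adhesion genes and partners of the 4 proteins, 4 of them the genes described here, 37 were tested, 47 were below the filter and 20 were not used here. Of the scaffolds 7 of 13 were tested, of the transport partners 9 of 13, and of the other synaptic adhesion genes 7 of 44. In every OGD library C1QL4, ADGRL1, LRFN3, GPHN and MAGI1 stayed under 1 FPKM. These genes passed the filter only through control and OGD/R libraries.

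The lists were drawn up by known function, but with earlier results of these data known. Their 33 tested partner genes were tested with limma, with Benjamini-Hochberg adjustment over all 10818 genes. The counts and p-values of these genes are thus no independent test. In OGD against control 22 were lower and 1 higher, with a median log2 fold change of -0.47 against -0.31 over all tested genes, of which 58% were called (46.7% lower, 11.3% higher). Scaling by median of ratios made that 11 lower and 4 higher, where 22.4% of all genes were lower and 27.1% higher. Quantile normalization gave 9 and 3, beside 22.4% and 20.0% of all genes, and removal of the transcript length trend 7 and 3, beside 23.7% and 21.3%. The called share of the 33 genes was thus 69.7% against 58% of all genes in the first fit, but 45.5%, 36.4% and 30.3% against 49.5%, 42.5% and 44.9% under these scalings. In OGD/R against OGD 24 were higher and 2 lower (median 0.73, against 0.39 over all), where 70.7% of all genes were called (53.3% higher, 17.4% lower). Here the same 3 scalings gave 16 higher and 4 lower (all genes 31.7% and 34.97%), 17 and 4 (31.4% and 31.3%), and 13 and 7 (30.1% and 30.9%). In OGD/R against control 9 were higher and 1 lower (median 0.23, against 0.07 over all), where 41.2% of all genes were called (24.7% higher, 16.5% lower). The called share of the 33, 30.3%, was below that of all genes. Without OGD/R replicate 2 there were 6 called, all higher, or 18.2% against 31.7% of all genes. After quantile normalization 7 were higher and 4 lower, or 33.3% against 45.3%, and with the length trend removed 8 and 5, or 39.4% against 43.9%.

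**Figure D4:**
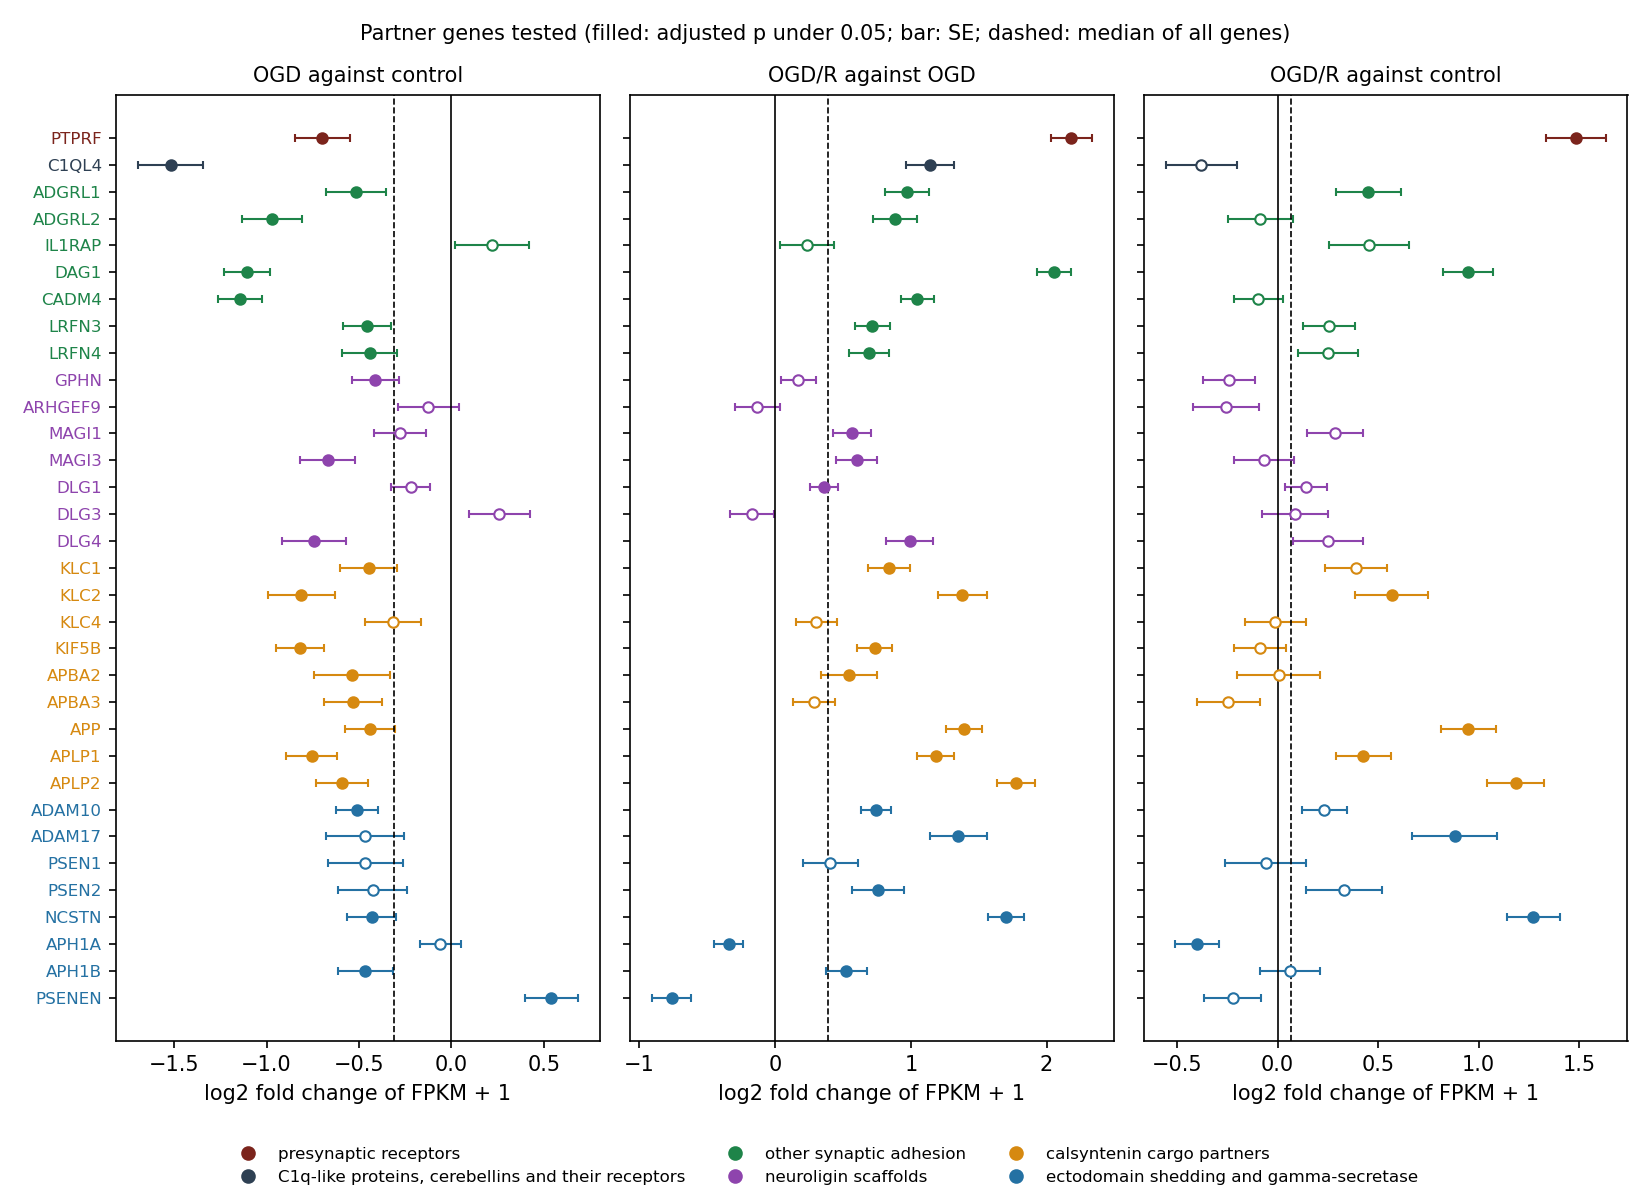
Log2 fold change of FPKM + 1 (x axis) with its SE for the 33 tested partner genes (rows, coloured by list) in the 3 comparisons, filled where the adjusted p from limma was under 0.05, with a dashed line at the median of all genes. C1QL4 lies farthest to the left in OGD against control, at -1.52, and PTPRF farthest to the right in OGD/R against control, at 1.48.

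Of the secreted ligands and their receptors C1QL4 was the tested gene, a close relative of C1QL1. It read 4.78, 3.41 and 2.95 FPKM in control, 0.853, 0.599 and 0.441 in OGD and 1.98, 2.90 and 2.93 after reoxygenation. C1QL4 fell in OGD (log2 fold change -1.52, SE 0.17, limma adjusted p = 3.93e-05) and rose from OGD to OGD/R (1.14, SE 0.17, adjusted p = 9.32e-05). All its OGD values were under the 1 FPKM minimum, so the filter admitted C1QL4 only through control and OGD/R. Its OGD/R libraries were all below control, but the difference of -0.38 did not pass the test (adjusted p = 0.1002). The same order of groups was seen in C1QL1.

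Of the receptors on the opposite membrane PTPRF, the receptor phosphatase LAR, was the tested gene. It read 8.26, 6.22 and 6.37 FPKM in control, 3.71, 3.29 and 4.69 in OGD and 18.7, 20.9 and 24.0 after reoxygenation. PTPRF rose in OGD/R against control (1.48, SE 0.15, limma adjusted p = 3.04e-05), the order seen in CLSTN1. Its fall in OGD (-0.70, adjusted p = 0.00190) had an adjusted p of 0.0867 after quantile normalization and of 0.233 with the length trend removed, which ended the call.

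Among 7 tested genes of the other synaptic adhesion list, 6 fell in OGD (46.7% of all genes did), 6 rose from OGD to OGD/R (53.3% of all) and 2 were above control in OGD/R, a share near the 24.7% of all genes. DAG1, dystroglycan, a laminin receptor of basement membranes and inhibitory synapses, read 13.0, 11.2 and 9.68 FPKM in control, 5.24, 4.35 and 4.49 in OGD and 20.7, 23.7 and 23.4 after reoxygenation. It fell in OGD (-1.11, limma adjusted p = 3.61e-05) and was above control in OGD/R (0.95, adjusted p = 0.000154). CADM4, an immunoglobulin-type adhesion gene, fell from 9.37 to 3.68 FPKM in OGD (-1.14, adjusted p = 2.35e-05), and its OGD/R libraries, with a mean of 8.66 FPKM, overlapped control (-0.10, adjusted p = 0.552). ADGRL2, latrophilin 2, fell from 14.0 to 6.64 FPKM in OGD (-0.97, adjusted p = 0.000436), and its rise from OGD to OGD/R (0.89) was lost with the length trend removed (adjusted p = 0.180). ADGRL1 was above control in OGD/R (0.45, adjusted p = 0.0410), a call lost under all alternatives except leaving out control replicate 1 or 2. IL1RAP had means of 11.8, 13.5 and 16.2 FPKM and passed no test.

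Among 7 tested scaffolds on the inner side of neuroligins, 3 fell in OGD (46.7% of all genes did) and 4 rose from OGD to OGD/R (53.3% of all). Their medians of -0.28 and 0.36 were near the -0.31 and 0.39 of all genes, and these shares were near those of all genes. In OGD/R against control their limma adjusted p ran from 0.116 to 0.737. DLG4, which encodes PSD-95, fell from 5.38 to 2.77 FPKM (-0.74, adjusted p = 0.00338), lost with the length trend removed (adjusted p = 0.0896). GPHN, gephyrin, which binds the tail of NLGN2, fell from 1.49 to 0.863 FPKM (-0.41, adjusted p = 0.0156), lost under each of the same 3 scalings (adjusted p from 0.128 to 0.616) and without OGD replicate 2 (adjusted p = 0.0526). DLG1, the most abundant scaffold, had means of 45.2, 38.7 and 50.2 FPKM. Its rise from OGD to OGD/R (0.36) turned to -0.12 after median-of-ratios scaling and -0.22 with the length trend removed (adjusted p = 0.0156). The rises of MAGI1 (0.57) and MAGI3 (0.60) from OGD to OGD/R turned to -0.22 and -0.12 with that trend removed.

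Among 9 tested genes for the transport partners of calsyntenins, 8 fell in OGD (46.7% of all genes did), 7 rose from OGD to OGD/R (53.3% of all) and 4 were above control in OGD/R (24.7% of all). KIF5B, the ubiquitous kinesin heavy chain, fell from 36.4 to 20.1 FPKM (-0.82, limma adjusted p = 0.000321) and stood at 34.1 FPKM in OGD/R. KLC2, a kinesin light chain, fell from 10.9 to 5.57 FPKM (-0.81, adjusted p = 0.00257), lost after quantile normalization (adjusted p = 0.0503). It was above control in OGD/R (0.57, adjusted p = 0.0247), a call lost without the filter (0.0671) and without control replicate 3 (0.0669) or either OGD/R replicate 2 (0.0884) or 3 (0.0807). APLP2, of the amyloid precursor family, read 83.2, 52.9 and 63.2 FPKM in control and 135, 171 and 146 in OGD/R, a rise of 1.19 (SE 0.14, adjusted p = 8.20e-05). APP itself rose from 109 to 211 FPKM in OGD/R (0.95, adjusted p = 0.000238). APLP1, the third gene of that family, was above control in OGD/R, at 5.94 against 4.16 FPKM (0.43, adjusted p = 0.0251), a call lost after quantile normalization (adjusted p = 0.0905) and without control replicate 3 (0.0712) and without either OGD/R replicate 2 (0.0798) or 3 (0.0951). The falls of APP and APLP2 in OGD (-0.44 and -0.59) were lost after median-of-ratios scaling and with the length trend removed (adjusted p from 0.0654 to 0.668), that of APP also without control replicate 1 (adjusted p = 0.0656) or OGD replicate 2 (adjusted p = 0.0576).

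Among 8 tested genes of ectodomain shedding, by which calsyntenins and neuroligins lose their outer part, 3 fell and 1 rose in OGD (all genes 46.7% and 11.3%), 5 rose and 2 fell from OGD to OGD/R (53.3% and 17.4%), and 2 were higher and 1 lower in OGD/R than in control (24.7% and 16.5%). The 3 falls, of ADAM10, APH1B and NCSTN, lost their call under each of the 3 scalings. NCSTN, the nicastrin subunit of gamma-secretase, read 18.5, 18.1 and 13.9 FPKM in control, 12.5, 12.1 and 11.8 in OGD and 39.6, 49.8 and 36.8 after reoxygenation. It rose in OGD/R against control (1.27, SE 0.13, limma adjusted p = 3.80e-05). Its fall in OGD (-0.43, adjusted p = 0.0145) was also lost without control replicate 1 (adjusted p = 0.0546). ADAM10, a sheddase, fell from 15.9 to 10.9 FPKM in OGD (-0.51, adjusted p = 0.00221), a difference of -0.16 after either median-of-ratios scaling (adjusted p = 0.147) or quantile normalization (adjusted p = 0.146) and of 0.086 with the length trend removed. APH1B, a gamma-secretase subunit gene, fell from 6.23 to 4.20 FPKM (-0.47, adjusted p = 0.0183), also lost without control replicate 1, OGD replicate 2 or OGD replicate 3 (adjusted p from 0.0583 to 0.0697). ADAM17, of the same enzyme family, was above control in OGD/R, at 6.75 against 3.25 FPKM (0.88, adjusted p = 0.00590). PSENEN, a small gamma-secretase subunit, moved the other way, with a mean of 33.97 FPKM in control that rose to 49.2 in OGD (0.54, adjusted p = 0.00643) and was 28.7 FPKM after reoxygenation. APH1A, the most abundant gene of this list, was lower in OGD/R than in control (102 against 136 FPKM, -0.40, adjusted p = 0.0117), lost after quantile normalization (adjusted p = 0.0731) and without OGD/R replicate 2 (adjusted p = 0.0532).

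Markers of other cells were read beside these genes. Of 14 neuron markers 9 were in the table and 8 of those stayed under 1 FPKM in every library, among them RBFOX3 (at most 0.0708), SNAP25 (0.517) and SYT1 (0.120 FPKM). TUBB3, which many dividing lines express, was the exception, and the summed level of the list was 14.3 to 18.3 FPKM in control libraries, 22.99 to 24.5 in those of OGD and 17.6 to 22.5 after reoxygenation. Astrocyte markers (1 of 7 tested) summed to 21.9 to 25.97 FPKM in control, 26.2 to 29.4 under deprivation and 29.02 to 32.98 after reoxygenation. Nearly all of that was GJA1, a gap junction gene that endothelial and many other cells also express, which was higher in OGD/R than in control (0.35, limma adjusted p = 0.0110), while GFAP reached 0.362 FPKM. No marker in the table was at 0 in every library. Fibroblast markers (3 of 6 tested) summed to 20.5 to 28.6 FPKM in control, 9.23 to 10.8 under deprivation and 52.2 to 69.7 after reoxygenation, mostly COL1A1 and COL1A2, while PDGFRA and DCN stayed at or under 0.0118 and 0.186 FPKM. Markers of pericytes and smooth muscle (5 of 8 tested) summed to 10.8 to 14.6, 6.33 to 7.96 and 18.8 to 21.6 FPKM. Epithelial markers (2 of 5 tested, mostly KRT18) summed to 166 to 201, 130 to 140 and 238 to 257 FPKM. These 3 sums followed the order of groups seen in NLGN2, CLSTN1 and CLSTN3, and their part in these results was not tested. Endothelial markers summed to 14.2 to 19.3, 6.50 to 9.41 and 15.4 to 17.7 FPKM.

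The libraries differed in scale as a whole. FPKM values summed to 454237 to 537878 in control, 585947 to 605818 under deprivation and 442696 to 449248 after reoxygenation, and without read numbers the counting error of a value is not known. With the trend of expression on transcript length removed from each library, OGD differed from control by -1.94 in NLGN2, -0.73 in CLSTN1, -0.62 in CLSTN3 and -2.61 in C1QL1. OGD/R then differed from control by 0.71, 1.60, 0.58 and -0.91. The sign of each of the 12 fold changes of the 4 genes was the same under every alternative run.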

How the data were processed

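The authors deposited 1 table of FPKM values for 15570 genes in 9 libraries, made from total RNA with a SMARTER mRNA kit, per the labels, and on GRCh38, per the submitters' processing notes. The sources used here do not name an aligner, quantifier or strand setting. Values did not fall into steps of whole reads, so the depth is unknown. The 4 genes and the gene lists were chosen with earlier results of these data known.

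Testing used limma 3.58.1 (R 4.3.3) on log2(FPKM + 1) of the 10818 genes that reached 1 FPKM in 3 or more libraries (1 fit of 3 groups, eBayes with trend, Benjamini-Hochberg adjustment, threshold 0.05). The fit was tested on simulated data with independent noise and no shift of whole libraries. In OGD against control it called 87% of changes of 1 log2 unit and 99% of those of 2, with 12 false calls among the genes left unchanged. That setting changed few of the 10818 genes. It does not cover the many changed genes or the differences in scale and length trend of the real libraries. Named partner genes were, per list, the called genes with the 3 largest fold changes in each direction and the most abundant gene. For each of the 4 genes the 3 genes with the highest Pearson r were named, except 1 that is not reported here. Alternatives were a pseudocount of 0.1, no filter, median-of-ratios scaling, quantile normalization, removal of the trend on GENCODE 29 transcript length, a replicate block, and each library left out. All genes matched RefSeq (GRCh38.p14) by NCBI Gene identifier.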

Additional observations from a re-analysis of the deposited data

How the results depend on the processing

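In OGD against control, a pseudocount of 0.1 gave -3.13 for NLGN2, -1.30 for CLSTN3 and -2.91 for C1QL1. Median-of-ratios scaling gave -0.81 for CLSTN1, -0.70 for CLSTN3, -2.31 for C1QL1 and 15 called partner genes (45.5% of 33, against 49.5% of all genes). Quantile normalization gave -0.72 for CLSTN1, -0.60 for CLSTN3, -2.25 for C1QL1 and 12 called (36.4% against 42.5%), and removal of the length trend -1.94 for NLGN2, -0.73 for CLSTN1, -0.62 for CLSTN3 and 10 called (30.3% against 44.9%). In OGD/R against OGD, the pseudocount gave 4.10 for NLGN2, 3.23 for CLSTN1 and 2.18 for CLSTN3. Median-of-ratios scaling gave 2.51 for CLSTN1, 1.33 for CLSTN3 and 1.15 for C1QL1, quantile normalization 2.75 for NLGN2, 2.56 for CLSTN1, 1.15 for CLSTN3 and 1.04 for C1QL1, and removal of the length trend 2.65 for NLGN2, 2.34 for CLSTN1 and 1.20 for CLSTN3. These 3 scalings move the median of all genes to near 0 by construction. With 1 library left out, 6 to 12 partner genes were called in OGD/R against control.

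Of 50 calls of named partner genes, 24 were kept by every alternative and 6 changed sign under one. With the length trend removed ADAM10 gave 0.086 in OGD against control and -0.27 in OGD/R against OGD, and in the latter DLG1 gave -0.22, MAGI1 -0.22 and MAGI3 -0.12. Those of ADAM10 and DLG1 in OGD/R against OGD were called in the other direction (limma adjusted p = 0.0243 and 0.0156). In OGD/R against OGD, APH1B gave -0.047 after quantile normalization and DLG1 -0.12 after median-of-ratios scaling. The causes were not tested.

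Libraries of the same replicate number did not consistently deviate together (r from -0.20 to 0.15 over 9 pairs). In 0 of 9 libraries were both libraries of its own number more alike to it than all others. Control replicate 2 and OGD/R replicate 2 were each other's closest library of another group (r = 0.15). The highest r between groups was 0.37, between control replicate 3 and OGD/R replicate 1, which have unlike numbers. Weak correlations over so few libraries cannot show whether the numbers pair samples. With the replicate block 24, 26 and 9 partner genes were called in the 3 comparisons, against 23, 26 and 10 without it. The number of libraries and the unknown depth limit the precision.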
